A study of Homo sapiens with 16 samples.

Results

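Zinc finger genes of the ZNF name series were compared between 2 human neuroblastoma cell lines, IMR5-75 and Be(2)-C, and 118 of them that were expressed in untreated Be(2)-C and lower in untreated IMR5-75 are described here. A gene was a member if its symbol was ZNF followed by digits and at most 1 letter, its mean level in the 2 Be(2)-C DMSO libraries was at least 2 CPM (counts per 1000000 counts of the library total), and its mean in the 2 IMR5-75 DMSO libraries was under 0.5 of that. The count table held 23459 gene symbols, 529 of which fitted the name pattern, and 468 of these reached the minimum of 2 CPM in untreated Be(2)-C. Members were thus chosen by the CPM of the 4 DMSO libraries, and their levels there and every change against DMSO are given as description without a test. The effect of DAC was judged by DAC + EPZ6438 against EPZ6438, and the gap between the lines by the treated libraries, none of which entered the choice.

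IMR5-75 and Be(2)-C cells were grown in RPMI medium with FCS and received DAC and EPZ-6438 together (DAC + EPZ6438), DAC at 1 µM for 72 h, EPZ-6438 at 1 µM for 96 h (EPZ6438), or the solvent DMSO. Total RNA was depleted of ribosomal RNA and sequenced from 16 libraries, 2 for each of the 8 groups of line and treatment. DAC is not spelled out in the labels; the abbreviation commonly means decitabine, a cytidine analogue that depletes DNA methyltransferases, and EPZ-6438 is an inhibitor of EZH2, the histone methyltransferase of Polycomb repressive complex PRC2. Whether the 2 replicates of a group came from separate cultures is not stated, so the tests below rest on the spread between libraries, which may be technical only. With 1 cell line on each side, a difference between the lines in these genes cannot be told apart from any other property in which the lines differ.

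ZNF genes encode DNA-binding proteins with repeated C2H2 zinc fingers, and in many of them a KRAB domain recruits the corepressor TRIM28 and with it SETDB1, which deposits a histone mark of heterochromatin. The family arose by repeated tandem duplication, many of its genes lie in clusters on chromosome 19, and a known task of KRAB zinc finger proteins is the silencing of transposable elements. Promoters of some ZNF genes are known to gain DNA methylation in tumour cells, while the bodies of ZNF genes often carry the heterochromatin mark that their own protein partners place.

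Library totals ran from 9539557 to 14032155 counts, and 15967 genes passed the filter on low counts, among them all 118 members, which passed it through their level in Be(2)-C. Of the 10 noradrenergic neuroblastoma markers examined, 9 reached 1 CPM in IMR5-75 and 10 in Be(2)-C, with a summed level of 2459 to 3343 CPM in IMR5-75 libraries and 4830 to 6994 CPM in Be(2)-C libraries. Summed epithelial and haematopoietic markers were at most 4.06 and 3.44 CPM in IMR5-75 and 28.4 and 2.35 CPM in Be(2)-C. Summed Schwann and glial markers ran from 3.42 to 25.7 CPM in IMR5-75 and 7.92 to 14.1 CPM in Be(2)-C, and mesenchymal markers from 264 to 689 CPM in IMR5-75 and 160 to 272 CPM in Be(2)-C. The part of these marker differences in the results below was not tested. In bulk RNA, fewer cells with a transcript and less transcript per cell cannot be told apart.

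In untreated cells most members were not merely lower in IMR5-75 but close to undetected there. The mean level in IMR5-75 DMSO libraries was under 0.1 of the Be(2)-C level for 83 of 118 members, and under 0.05 for 78 of these. It was 0.1 to under 0.25 for 8 members and 0.25 to under 0.5 for the remaining 27. The median ratio was 0.0209. Over both IMR5-75 DMSO libraries, 45 members had 3 counts or fewer and 10 had 0 counts. The members nearest the threshold were ZNF468 with a ratio of 0.493, ZNF550 with 0.491 and ZNF417 with 0.483, and the nearest ZNF genes outside it were ZNF324 with 0.505, ZNF530 with 0.521 and ZNF805 with 0.526. At the minimum level, ZNF729 with 2.04 CPM and ZNF98 with 2.21 CPM in Be(2)-C DMSO libraries were just inside, and ZNF154 with 1.27 CPM and ZNF665 with 1.02 CPM were just outside.

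The 10 members with 0 counts in both IMR5-75 DMSO libraries were ZNF560, ZNF845, ZNF518B, ZNF718, ZNF727, ZNF813, ZNF876P, ZNF716, ZNF454 and ZNF157. A count of 0 allows up to 3 counts, which is 0.214 and 0.239 CPM in those libraries and covers counting error only. In Be(2)-C DMSO libraries their means ran from 2.88 CPM for ZNF157 to 19.9 CPM for ZNF560. CPM is not corrected for gene length, so levels are compared below within a gene and not between genes.

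Most of the changes with DAC added to EPZ6438 in IMR5-75 were upward. Of 118 members, 62 were called higher and 1 was called lower (edgeR quasi-likelihood test, Benjamini-Hochberg adjusted p under 0.05), beside 20.7% of all tested genes called higher and 16.9% called lower. The median log2 change of the members was 1.51, or 1.31 with genes at 0 counts in a group set to their bound, against 0.01 over all tested genes. Of the 309 other ZNF genes at the same minimum level, 15 were called higher and 72 lower, with a median log2 change of -0.11. Of the 47 ZNF genes with the opposite difference, lower in untreated Be(2)-C, 4 were called higher and 20 lower. In the IMR5-75 EPZ6438 libraries the members' median was 0.477 and 0.314 CPM, and 12 and 20 members had 0 counts. The median of the other ZNF genes there was 21.2 and 21.9 CPM. Many members, chosen as low in IMR5-75, thus had little room to be called lower. The balance of higher and lower calls cannot be set against that of the other sets.

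**Figure D1:**
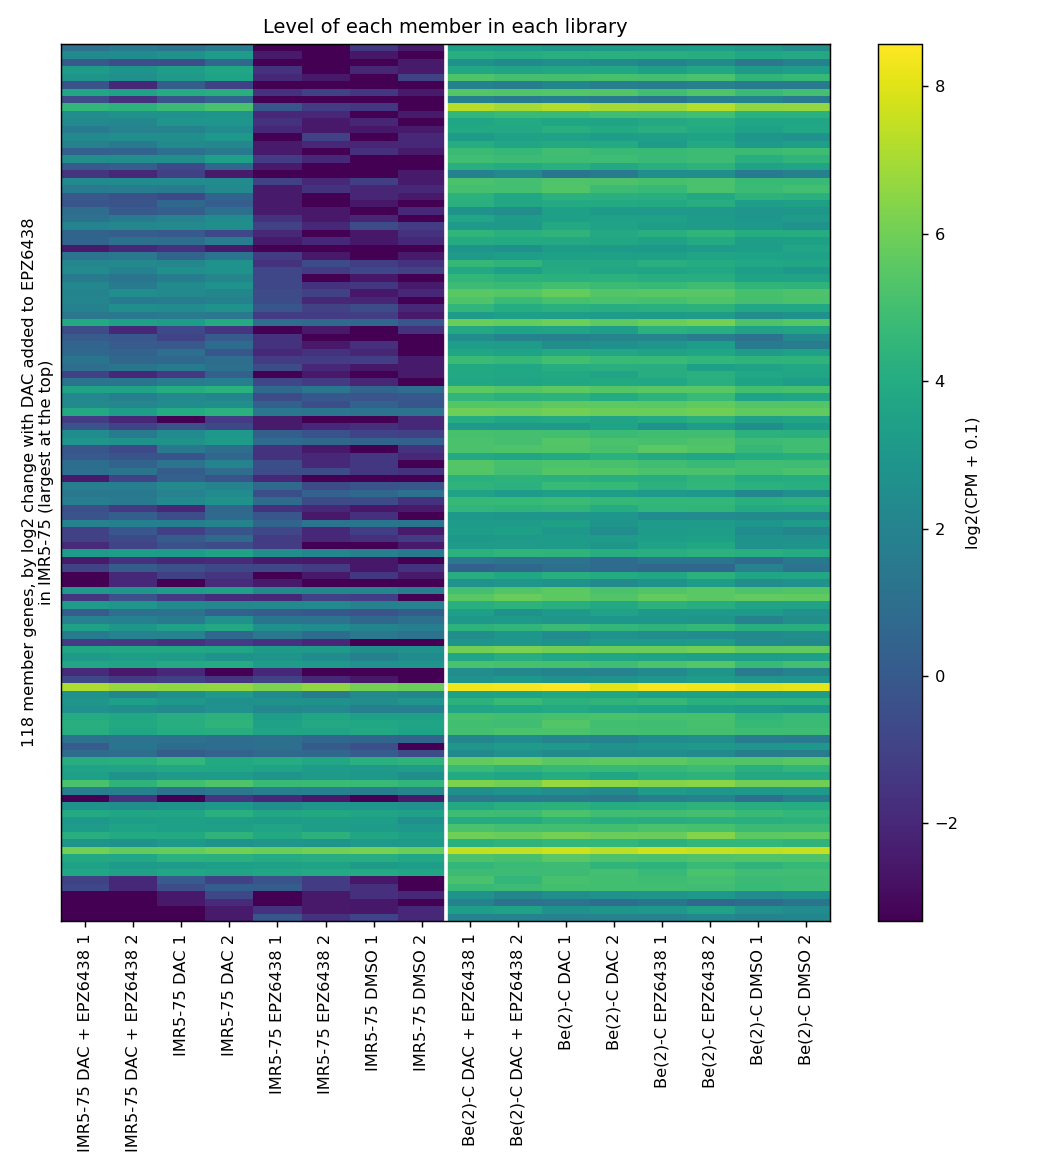
Levels of the 118 members, 1 row each, in each of the 16 libraries as log2(CPM + 0.1), with IMR5-75 left and Be(2)-C right of the white bar and the genes ordered by their log2 change with DAC added to EPZ6438 in IMR5-75. IMR5-75 libraries with DAC were brighter than those without it for the upper part of the genes. For DAC + EPZ6438 against EPZ6438 the ordering itself gives this. In IMR5-75, 80 and 83 members reached 1 CPM with DAC + EPZ6438 against 44 and 39 with EPZ6438. With DAC 85 and 92 did, and with DMSO, whose libraries chose the members, 39 and 38.

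The summed member level was 787 and 686 CPM in IMR5-75 DAC + EPZ6438 libraries, 769 and 879 CPM in DAC libraries, 445 and 467 CPM in EPZ6438 libraries, and 419 and 376 CPM in DMSO libraries. In Be(2)-C it ran from 2446 to 3292 CPM over the 8 libraries. Both IMR5-75 DAC + EPZ6438 libraries lay above both EPZ6438 libraries, and the 6 treated IMR5-75 libraries lay below the 6 treated Be(2)-C libraries. The DMSO libraries chose the members, so nothing is read from their place. Members with 0 counts numbered 7 and 4 in the IMR5-75 DAC + EPZ6438 libraries, 5 and 1 with DAC, 12 and 20 with EPZ6438, and 23 and 29 with DMSO, while no member was at 0 in any Be(2)-C library.

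ZNF300, a KRAB zinc finger gene on chromosome 5, was among the 10 members with the highest changes. In IMR5-75 it had 23.3 and 20.4 CPM with DAC + EPZ6438, 27.5 and 35.9 CPM with DAC, 0.796 and 0.314 CPM with EPZ6438, and 0.285 and 0 CPM with DMSO. Its Be(2)-C libraries had 158 and 125 CPM with DAC + EPZ6438, 146 and 127 CPM with DAC, 114 and 151 CPM with EPZ6438, and 95.9 and 99.3 CPM with DMSO. Its IMR5-75 libraries with DAC stood far above those without it and below every Be(2)-C library. The log2 change with DAC added to EPZ6438 in IMR5-75 was 5.14 ± 0.34 (SE, adjusted p = 3.28e-10, edgeR), and without the first IMR5-75 EPZ6438 library it was 5.96.

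ZNF559, on chromosome 19, was another of these. In IMR5-75 it had 13.8 and 11.9 CPM with DAC + EPZ6438, 16.3 and 17.6 CPM with DAC, 0.239 and 0.392 CPM with EPZ6438, and 0.285 and 0.0795 CPM with DMSO. The 8 Be(2)-C libraries ran from 27.7 to 43.9 CPM. Groups with and without DAC did not overlap in IMR5-75, and the log2 change with DAC added to EPZ6438 was 5.16 ± 0.33 (SE, adjusted p = 1.59e-10, edgeR).

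ZNF502, on chromosome 3, came closest to the Be(2)-C level. With DAC + EPZ6438 its IMR5-75 level was 62.8% of that in Be(2)-C, the highest of the members. In IMR5-75 it had 9.25 and 7.14 CPM with DAC + EPZ6438, 9.78 and 12.6 CPM with DAC, 0.239 and 0 CPM with EPZ6438, and 0.143 and 0.0795 CPM with DMSO. Be(2)-C had 13.7 and 12.4 CPM with DAC + EPZ6438, 14 and 13.5 CPM with DAC, 10.7 and 13.8 CPM with EPZ6438, and 8.86 and 10.1 CPM with DMSO. With DAC alone, its IMR5-75 libraries lay within or above the range of the Be(2)-C DMSO libraries and below both Be(2)-C DAC libraries. DAC + EPZ6438 over EPZ6438 in IMR5-75 was a ratio of 68.8 (exact binomial 95% interval 23.2 to 336, 208 against 3 counts, adjusted p = 4.95e-09, edgeR). Without the second EPZ6438 library the ratio was 34.1, and without the first it was a bound of at least 34.6-fold. ZNF502 was the single member not called lower in IMR5-75 than in Be(2)-C under DAC, with a log2 difference of -0.39 ± 0.21 (SE, adjusted p = 0.0969, edgeR).

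**Figure D2:**
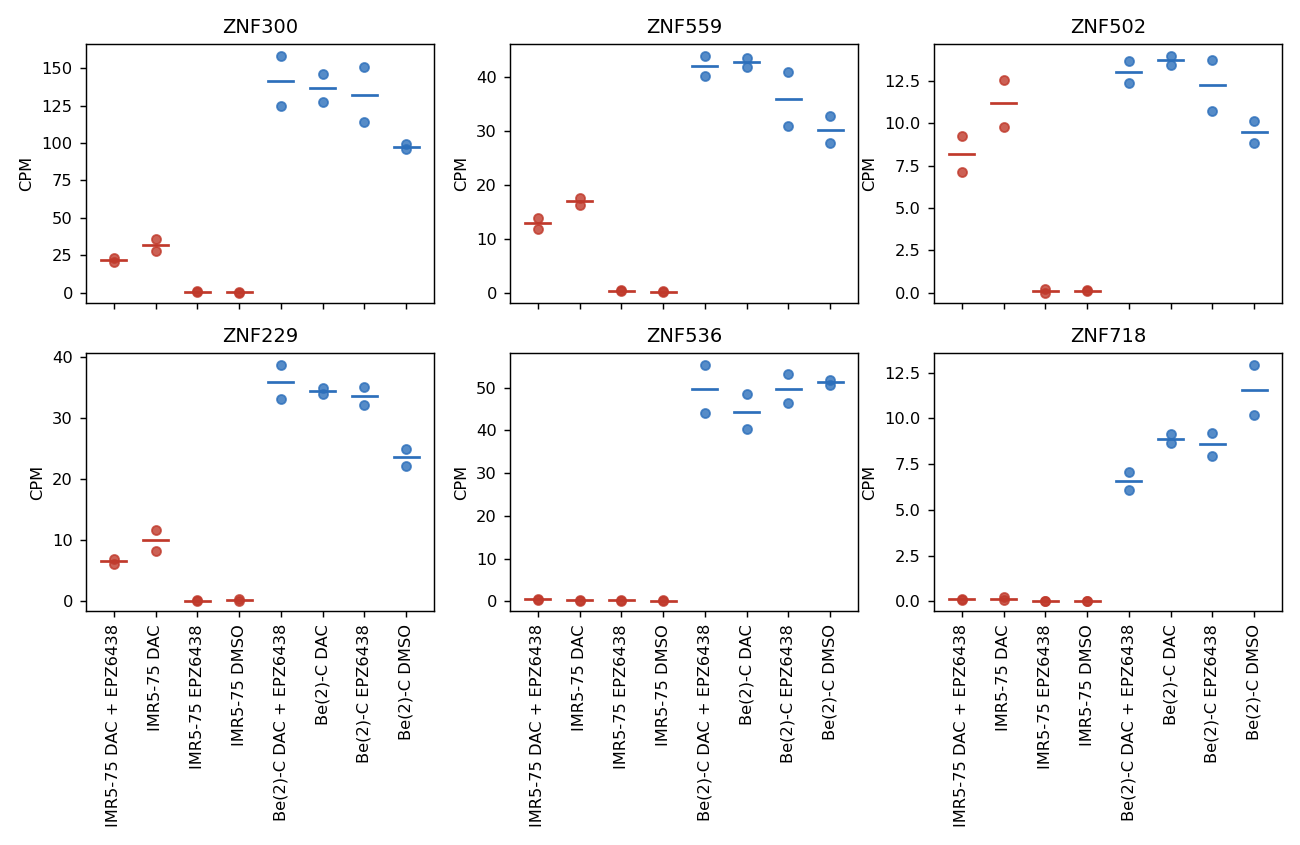
CPM of 6 members in each library (points) with the mean of each group of 2 (bars), IMR5-75 in red and Be(2)-C in blue, on linear axes from 0 that differ between panels. ZNF300, ZNF559, ZNF502 and ZNF229 were near 0 in IMR5-75 without DAC and detected with it, while ZNF536 and ZNF718 stayed under 1 CPM in all 8 IMR5-75 libraries.

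The other members with the highest changes had few or no counts without DAC. ZNF223 had 66 counts in IMR5-75 DAC + EPZ6438 libraries against 0 in EPZ6438 libraries, at least 21.8-fold higher against a floor of 3 counts over the group (adjusted p = 9.65e-07, edgeR). ZNF615 had 135 counts against 1, a ratio of 134 (exact binomial 95% interval 23.6 to 5328, adjusted p = 7.5e-09, edgeR), which became 66.5 without the second EPZ6438 library and at least 22.5-fold without the first. ZNF229 had 167 counts against 3, a ratio of 55.2 (exact binomial 95% interval 18.6 to 270, adjusted p = 4.01e-08, edgeR). All 3 had at most 3 counts over the EPZ6438 group, and their libraries with DAC lay above it.

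ZNF841, a neighbour of ZNF615 on chromosome 19, had 5.57 and 6.91 CPM with DAC + EPZ6438 against 0.159 and 0.157 CPM with EPZ6438 in IMR5-75, a log2 change of 5.08 ± 0.38 (SE, adjusted p = 1.94e-09, edgeR). ZNF404 was at least 6.28-fold higher (19 counts against 0, adjusted p = 0.0013, edgeR). ZNF157, on the X chromosome, was at least 3.64-fold higher (11 counts against 0, adjusted p = 0.0128, edgeR), and ZNF876P, named as a pseudogene, at least 3.31-fold (10 counts against 0, adjusted p = 0.0136, edgeR). The calls of ZNF157 and ZNF876P were lost without either EPZ6438 library or without the first DAC + EPZ6438 library, with an adjusted p of 0.0627 to 0.141 for ZNF157 and 0.0648 to 0.083 for ZNF876P (edgeR). Without 1 of the libraries at 0, a bound fell to between 0.451 and 0.549 of its value.

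Of the 62 members called higher, the fitted log2 change ran from 0.42 to 7.83 with a median of 3.17, and it was over 1 for 55. All 62 were also called with DESeq2 size factors, 61 by DESeq2's Wald test, and 47 under every alternative tried for this comparison, among them leaving out each of its 4 libraries in turn. ZNF93, ZNF350 and ZNF331 were chosen for their known roles after their values were seen. ZNF93, known to bind and silence a family of LINE-1 retrotransposons, had 1.8 and 2.41 CPM with DAC + EPZ6438 against 0.557 and 0.157 CPM with EPZ6438 in IMR5-75 (log2 change 2.40 ± 0.50, SE, adjusted p = 0.000763, edgeR).

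ZNF350, a repressor known to bind BRCA1, had 3.52 and 2.86 CPM with DAC + EPZ6438 against 0.0796 and 0.157 CPM with EPZ6438, a ratio of 26.8 (exact binomial 95% interval 8.85 to 133, adjusted p = 1.39e-06, edgeR). ZNF331, a gene known for imprinted expression, had 0.491 and 0.15 CPM against 1.03 and 0.314 CPM and was not called (log2 change -1.21 ± 0.65, SE, adjusted p = 0.151, edgeR). Be(2)-C libraries had 26 to 31.6 CPM of ZNF331.

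The calls are also given by how far a member lay below Be(2)-C in untreated cells. Among the 83 members with an untreated ratio under 0.1, 55 were called higher and 1 lower, with a median log2 change of 2.60. Their low counts without DAC left little room for a call lower. Among the 35 with a ratio of 0.1 or more, 7 were called higher and 0 lower, with a median of 0.17, and the share called higher was near the 20.7% of all tested genes. The difference between the bands was not tested.

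The 35 members of the second band included those with the smallest changes. ZNF468 had 10.4 and 6.54 CPM with DAC + EPZ6438 against 7.08 and 8.55 CPM with EPZ6438 in IMR5-75, a log2 change of -0.03 ± 0.22 (SE, adjusted p = 0.931, edgeR). ZNF460 had -0.06 ± 0.17, ZNF329 0.07 ± 0.18, ZNF581 0.08 ± 0.18 and ZNF19 0.09 ± 0.31 as their log2 changes with SE. The groups of ZNF468 overlapped. Fitted log2 changes use library sizes scaled by TMM, the trimmed mean of M values, and CPM do not, so a small log2 change can differ in sign from the ratio of mean CPM.

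Among the 8 members highest in untreated Be(2)-C, the response was mixed. ZNF776 had 15.3 and 10.2 CPM with DAC + EPZ6438 against 2.63 and 2.43 CPM with EPZ6438 in IMR5-75, a log2 change of 2.19 ± 0.21 (SE, adjusted p = 7.52e-08, edgeR). ZNF792 had 12.9 and 13.6 CPM against 8.83 and 8.31 CPM, a log2 change of 0.49 ± 0.15 (SE, adjusted p = 0.0126, edgeR), a call lost without the second EPZ6438 library or without the second DAC + EPZ6438 library, with an adjusted p of 0.0683 and 0.0663 (edgeR). ZNF300 is given above, and ZNF704, ZNF770, ZNF460, ZNF536 and ZNF320 were not called.

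ZNF704 had 137 and 103 CPM with DAC + EPZ6438 against 75 and 97.6 CPM with EPZ6438 in IMR5-75 (log2 change 0.33 ± 0.15, SE, adjusted p = 0.0947, edgeR), and it was called with no filter, with an adjusted p of 0.0202, and with single libraries left out. ZNF770 had 65.2 and 53.1 CPM against 59.3 and 66.4 CPM, and ZNF320 17.8 and 15.4 CPM against 14.9 and 19.7 CPM. Both groups of ZNF770 and of ZNF320 overlapped.

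Some members stayed close to undetected with DAC + EPZ6438. In the band under 0.1, 33 of 83 members were under 1 CPM in both IMR5-75 DAC + EPZ6438 libraries. ZNF536, a brain-enriched gene known as a negative regulator of neuronal differentiation, had 0.246 and 0.676 CPM with DAC + EPZ6438, 0.299 and 0.164 CPM with DAC, 0.159 and 0.392 CPM with EPZ6438, and 0.356 and 0 CPM with DMSO in IMR5-75. Its Be(2)-C libraries ran from 40.3 to 55.3 CPM. The lines did not overlap with DAC + EPZ6438, DAC or EPZ6438, and the 3 treated IMR5-75 groups overlapped each other.

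ZNF718 had 3 counts in IMR5-75 DAC + EPZ6438 libraries, 4 in DAC libraries and 0 in EPZ6438 and DMSO libraries, against 6.08 to 12.9 CPM in Be(2)-C. ZNF845 had 7, 25, 2 and 0 counts in the same 4 groups, ZNF813 8, 7, 5 and 0, ZNF727 2, 2, 1 and 0, and ZNF716 3, 2, 2 and 0. Among the 10 members at 0 counts in untreated IMR5-75, ZNF560, ZNF518B, ZNF454, ZNF157 and ZNF876P were called higher with DAC added to EPZ6438. ZNF560 had 5.81 and 5.64 CPM with DAC + EPZ6438 against 0.318 and 0.157 CPM with EPZ6438 (log2 change 4.40 ± 0.43, SE, adjusted p = 1.41e-07, edgeR).

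ZNF518B had 26 counts against 1, a ratio of 25.8 (exact binomial 95% interval 4.24 to 1057, adjusted p = 0.000927, edgeR), or 12.8 without the second EPZ6438 library and at least 4.33-fold without the first. ZNF454 had 23 counts against 3, a ratio of 7.61 (exact binomial 95% interval 2.30 to 39.6, adjusted p = 0.0197, edgeR), and lost its call without the second EPZ6438 library, with an adjusted p of 0.167, or without the first DAC + EPZ6438 library, with 0.0611 (edgeR). ZNF630, an X-linked gene, was the member called lower: it had 0 counts with DAC + EPZ6438 against 13 with EPZ6438, at least 4.37-fold lower (adjusted p = 0.00256, edgeR). The bound was 2.28-fold and 2.09-fold without the first and the second DAC + EPZ6438 library, 6.77-fold without the second EPZ6438 library, and without the first, which held most of the counts, no fold is given. With DAC it had 1 count and with DMSO 8 in IMR5-75.

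Promoter windows of 3 members that rose and 3 that stayed at 8 counts or fewer with DAC + EPZ6438 are printed because DNA methylation in human cells falls on CG dinucleotides. Each window runs from 250 bases before to 50 after an annotated start in RefSeq (GRCh38.p14), 5′ to 3′ on the gene's strand, with every CG in capitals. ZNF300, ZNF502 and ZNF615 rose, and ZNF718, ZNF845 and ZNF813 are the others. With DAC alone, ZNF845 had 25 counts in IMR5-75, ZNF718 had 4 and ZNF813 had 7. The place of ZNF845 thus depends on which group with DAC is read.
ZNF300, chr5:150904931-150905230, minus strand: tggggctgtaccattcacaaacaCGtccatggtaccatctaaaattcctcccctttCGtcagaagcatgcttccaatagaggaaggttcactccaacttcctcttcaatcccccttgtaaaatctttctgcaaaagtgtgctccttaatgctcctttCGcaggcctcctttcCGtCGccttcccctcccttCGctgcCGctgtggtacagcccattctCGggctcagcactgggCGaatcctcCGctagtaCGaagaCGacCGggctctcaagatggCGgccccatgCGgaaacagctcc
ZNF502, chr3:44712410-44712709, plus strand: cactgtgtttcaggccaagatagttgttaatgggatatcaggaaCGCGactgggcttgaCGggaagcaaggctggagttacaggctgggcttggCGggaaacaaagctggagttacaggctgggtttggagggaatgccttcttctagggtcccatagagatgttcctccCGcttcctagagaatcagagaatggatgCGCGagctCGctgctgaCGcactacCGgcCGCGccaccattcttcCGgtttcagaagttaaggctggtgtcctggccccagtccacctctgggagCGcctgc
ZNF615, chr19:52008162-52008461, minus strand: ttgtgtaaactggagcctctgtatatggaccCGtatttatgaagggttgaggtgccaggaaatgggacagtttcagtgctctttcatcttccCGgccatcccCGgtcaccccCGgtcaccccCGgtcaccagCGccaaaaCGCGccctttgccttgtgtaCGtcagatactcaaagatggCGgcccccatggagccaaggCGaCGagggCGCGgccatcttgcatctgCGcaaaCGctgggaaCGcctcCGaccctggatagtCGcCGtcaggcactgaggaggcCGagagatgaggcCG
ZNF718, chr4:127871-128170, plus strand: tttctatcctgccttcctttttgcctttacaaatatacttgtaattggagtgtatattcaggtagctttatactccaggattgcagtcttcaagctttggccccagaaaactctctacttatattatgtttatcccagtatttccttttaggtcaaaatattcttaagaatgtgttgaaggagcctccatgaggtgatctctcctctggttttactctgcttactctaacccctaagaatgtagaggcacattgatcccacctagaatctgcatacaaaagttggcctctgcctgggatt
ZNF845, chr19:53333499-53333798, plus strand: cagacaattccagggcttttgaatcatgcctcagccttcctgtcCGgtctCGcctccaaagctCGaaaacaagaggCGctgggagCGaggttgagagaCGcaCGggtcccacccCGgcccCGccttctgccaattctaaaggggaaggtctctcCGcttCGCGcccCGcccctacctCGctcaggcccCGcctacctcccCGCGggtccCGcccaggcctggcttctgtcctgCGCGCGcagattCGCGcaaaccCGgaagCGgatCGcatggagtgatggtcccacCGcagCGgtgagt
ZNF813, chr19:53467483-53467782, plus strand: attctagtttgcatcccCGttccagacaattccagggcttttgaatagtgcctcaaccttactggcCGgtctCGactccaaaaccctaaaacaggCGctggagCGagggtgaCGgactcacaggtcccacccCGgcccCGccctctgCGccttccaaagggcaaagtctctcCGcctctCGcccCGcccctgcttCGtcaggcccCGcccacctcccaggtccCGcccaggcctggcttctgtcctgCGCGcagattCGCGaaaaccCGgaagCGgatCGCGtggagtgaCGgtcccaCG
The windows of ZNF300, ZNF502 and ZNF615 held 15, 14 and 22 CG, and those of ZNF718, ZNF845 and ZNF813 held 0, 28 and 25. Among windows not printed, those of ZNF404, ZNF560, ZNF454 and ZNF518B, all called higher, held 2, 16, 27 and 35 CG. Those of ZNF727 and ZNF716, not called, held 8 and 7, so the printed windows do not stand for all members. The windows of ZNF845 and ZNF813 share a stretch of 34 bases. The windows lie mostly before the start, so this does not show whether reads of these genes can be exchanged. That was not examined. Of 118 members, 98 (83.1%) had a window, and their median CG count was 19.25, or 17 in the 51 called higher and 20.5 in the 47 not called higher. Windows of the other ZNF genes had a median of 22, those of the ZNF genes lower in untreated Be(2)-C 25, those of all tested genes 25, and those of all symbols of the RefSeq promoters 14. CG reads alike on both strands. A count of 15 or more was found in 69.4% of members with a window, 85.8% of the other ZNF genes, 80.9% of all tested genes with a window and 49.6% of all symbols. CG content does not show whether a site was methylated, which was not measured, and a start used in these cells may lie elsewhere.

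Be(2)-C, the line in which the members were already expressed, gave no call. DAC added to EPZ6438 called 0 of 118 members in either direction (edgeR quasi-likelihood test), beside 2.84% of all tested genes called higher and 1.37% lower. At an unadjusted p under 0.05, 2 members were higher and 2 lower, and DESeq2's Wald test called 0. The members' median log2 change was -0.02 and the full range -0.53 to 0.62. Of the other ZNF genes 2 were called higher and 1 lower.

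The difference between the lines in this change was tested directly. It was called positive, with a larger change in IMR5-75, for 49 members and negative for 1, beside 5.91% and 4.50% of all tested genes. Of the other ZNF genes, 1 was called positive and 22 negative. Low counts of many members in IMR5-75 EPZ6438 libraries left them little room to fall there. ZNF223 had the largest fitted difference at 7.71 ± 0.98 (SE, log2, adjusted p = 2.09e-05, edgeR), a value that depends on the prior count because the gene was at 0 in IMR5-75 EPZ6438 libraries. ZNF300 had a difference of 5.04 ± 0.40 (SE, log2, adjusted p = 2.29e-08, edgeR).

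**Figure D3:**
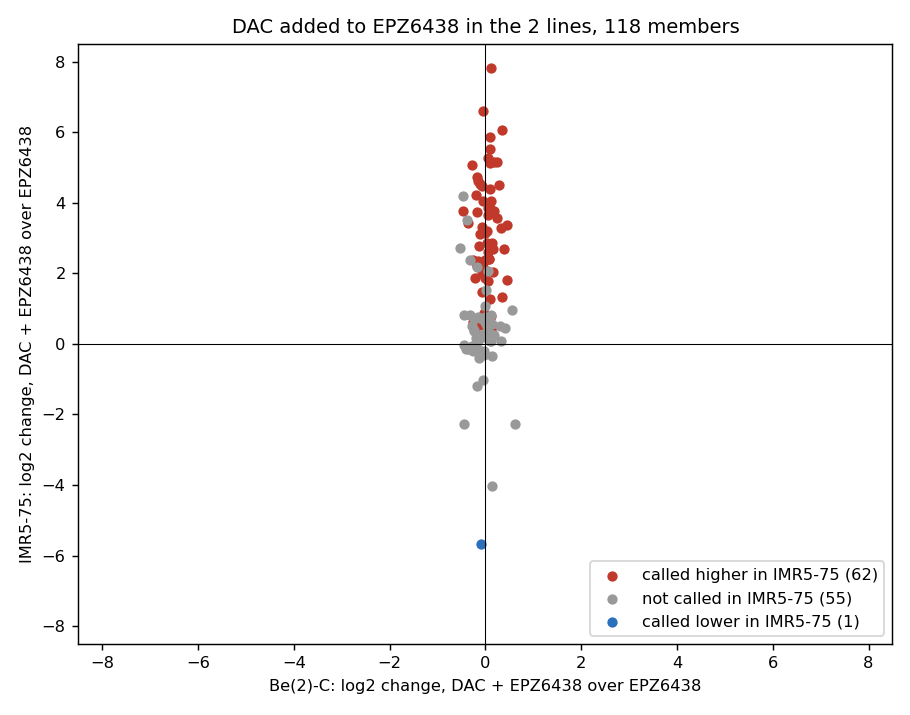
Fitted log2 change of each of the 118 members with DAC added to EPZ6438, in IMR5-75 on the vertical axis and in Be(2)-C on the horizontal axis on the same scale, coloured by the call in IMR5-75. Points spread from -5.66 to 7.83 in IMR5-75 and from -0.53 to 0.62 in Be(2)-C.

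The gap between the lines narrowed with DAC but did not close. The IMR5-75 level as a percentage of the Be(2)-C level under the same treatment had a median over members of 19.3% with DAC + EPZ6438, 22.5% with DAC, 2.44% with EPZ6438 and 2.09% with DMSO. It was at least 50% for 9 members with DAC + EPZ6438, 13 with DAC, 2 with EPZ6438 and, by the rule, 0 with DMSO, and no member reached 100%. The highest value with DAC + EPZ6438 was 62.8%.

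**Figure D4:**
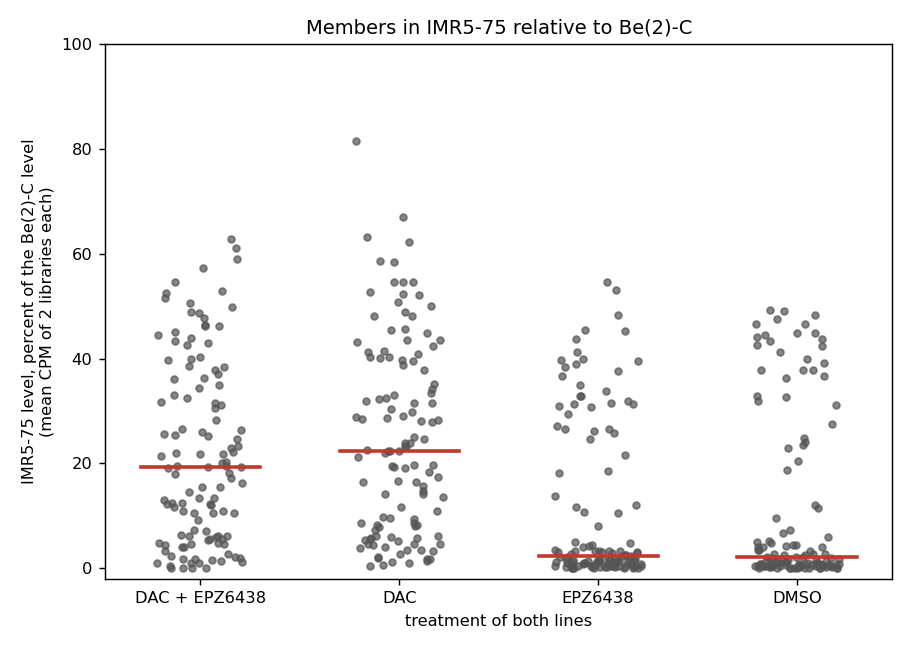
IMR5-75 level of each member as a percentage of its Be(2)-C level under the same treatment, from means of 2 libraries each, with the median as a red bar. The medians were 19.3% with DAC + EPZ6438 and 22.5% with DAC, against 2.44% with EPZ6438 and 2.09% with DMSO.

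In libraries that did not choose the members, IMR5-75 remained below Be(2)-C. Under EPZ6438, 118 of 118 members were called lower in IMR5-75 and 0 higher, beside 31.4% of all tested genes called lower and 31.8% higher (edgeR quasi-likelihood test), and the median log2 difference was -5.29. Under DAC 117 were lower and 0 higher, beside 32.2% and 34.5% of tested genes, with a median of -2.24. Under DAC + EPZ6438 117 were lower and 0 higher, beside 33.5% and 34.3%, with a median of -2.54. The members were chosen for this gap in the same 2 lines, so calls in its direction were likely beforehand. The 47 ZNF genes chosen by the opposite difference kept theirs as well. Of these, 46 were called higher in IMR5-75 under EPZ6438, 46 under DAC and 45 under DAC + EPZ6438, and 0 lower.

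At an unadjusted p under 0.05 no member was higher under any of the 3 treatments either, and DESeq2's Wald test called 0 higher. The member not called under DAC + EPZ6438 was ZNF878, with 0.409 and 1.05 CPM in IMR5-75 against 1.21 and 1.47 CPM in Be(2)-C. It and ZNF502 were named after their values were seen. The other ZNF genes had medians of -0.08 under EPZ6438, -0.11 under DAC and -0.26 under DAC + EPZ6438.

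The widest gaps under EPZ6438 were at genes with 0 counts in IMR5-75. ZNF223 was at least 79.3-fold lower than in Be(2)-C, ZNF718 at least 72.5-fold and ZNF702P, named as a pseudogene, at least 48.8-fold. Under DAC + EPZ6438, ZNF556 was at least 90.6-fold lower, ZNF257 at least 46.7-fold and ZNF630 at least 33.8-fold. Under DAC, ZNF536 was lower by a log2 difference of -7.59 ± 0.34 (SE, adjusted p = 3.43e-14, edgeR), and ZNF677 by -6.47 ± 0.46 (SE, adjusted p = 5.75e-11, edgeR). ZNF556 had 1 count in IMR5-75 DAC libraries against 170 in Be(2)-C DAC libraries, a ratio of 0.00535 (exact binomial 95% interval 0.000135 to 0.0302). Without the first or the second IMR5-75 DAC library, ZNF677 had a log2 difference of -5.45 or was at least 62.3-fold lower, and ZNF556 had a ratio of 0.0112 or was at least 32.7-fold lower.

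Adding EPZ6438 to DAC gave few calls. In IMR5-75, DAC + EPZ6438 against DAC called 0 members higher and 2 lower, beside 1.22% and 0.720% of tested genes (edgeR quasi-likelihood test). At an unadjusted p under 0.05, 1 was higher and 33 lower, and DESeq2's Wald test called 0 higher and 3 lower. The share of all tested genes at that unadjusted p is not given here. Both DAC + EPZ6438 libraries lay below both DAC libraries for 34.7% of members and 12.3% of all tested genes. They lay above for 5.08% of members and 27.8% of all tested genes. The members' median log2 change was -0.28, that of the other ZNF genes -0.16 and that of all tested genes 0.00.

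ZNF208 had 0.819 and 0.526 CPM with DAC + EPZ6438 against 2.61 and 1.89 CPM with DAC (log2 change -1.81 ± 0.40, SE, adjusted p = 0.0221, edgeR), and ZNF772 had 11.5 and 11.5 CPM against 16.2 and 19 CPM (log2 change -0.68 ± 0.16, SE, adjusted p = 0.0317, edgeR). The call of ZNF208 was lost with each of the 4 libraries left out, where the adjusted p ran from 0.0645 to 0.264 (edgeR). That of ZNF772 was lost without the second DAC library and without either DAC + EPZ6438 library, where it ran from 0.172 to 0.357 (edgeR).

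The same comparison in Be(2)-C called 1 member higher and 0 lower, beside 3.42% and 2.02% of tested genes (edgeR quasi-likelihood test). At an unadjusted p under 0.05, 5 were higher and 3 lower, and DESeq2's Wald test called 1 higher and 0 lower. ZNF883 had 24.5 and 21.1 CPM with DAC + EPZ6438 against 14.6 and 14.6 CPM with DAC (log2 change 0.65 ± 0.18, SE, adjusted p = 0.035, edgeR), a call lost with each of the 4 libraries left out, where the adjusted p ran from 0.0709 to 0.271 (edgeR). As a description against DMSO, in IMR5-75 the members' median log2 change was 2.29 with DAC + EPZ6438, 2.55 with DAC and 0.30 with EPZ6438, and in Be(2)-C it was 0.20, 0.26 and 0.22. These share the DMSO libraries that chose the members.

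Most members lay on chromosome 19. By RefSeq (GRCh38.p14, used for names and gene order), 88 of 118 were on chromosome 19, out of 230 ZNF genes on it at 2 CPM or more in untreated Be(2)-C (38.3%). Over all chromosomes, 118 of 468 such genes were members. On chromosome 4, 5 of 9 such genes were members, on chromosome 16 5 of 30, on chromosome 7 5 of 31, on chromosome 5 3 of 10 and on chromosome 3 3 of 15. Of all 118 members, 62 were called higher with DAC added to EPZ6438 in IMR5-75, beside 20.7% of all tested genes. They numbered 46 on chromosome 19, 4 on chromosome 4, 3 on chromosome 5 and 3 on chromosome 3, and 1 each on chromosomes 7, 9, 10, 16, 20 and X. Chromosomes 1, 2, 12, 14, 17, 18, 21 and 22 held no member.

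Members stood in runs of neighbouring zinc finger genes, taken as genes with at most 3 other protein-coding genes between them. The counts of each run are to be read beside 118 members among all 468 ZNF genes at the minimum level. Of these 118, 62 were called higher, beside 20.7% of all tested genes. Whether a run departs from these shares was not tested. The run from ZNF787 to ZNF446 at the end of chromosome 19 held 25 members among 51 ZNF genes at the minimum level, 11 of which were called higher. That from ZNF577 to ZNF331, with ZNF615, ZNF841, ZNF350, ZNF845 and ZNF813, held 22 of 35, and 9 were called higher. The run from ZNF101 to ZNF254 held 14 of 32, and 8 were called higher.

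The run from ZNF565 to ZNF573 held 5 members of 25 (ZNF829, ZNF568, ZNF585A, ZNF585B and ZNF793), and all 5 were called higher, beside 62 of all 118 members. The run from ZNF283 to ZNF180, with ZNF223, ZNF229 and ZNF404, held 7 of 19, and 6 were called higher. The run from ZNF722 to ZNF92 on chromosome 7 held 3 of 8 (ZNF727, ZNF736 and ZNF680), and 0 were called higher. Neighbouring copies such as ZNF585A and ZNF585B are closely related and can exchange reads, so their separate counts are uncertain.

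**Figure D5:**
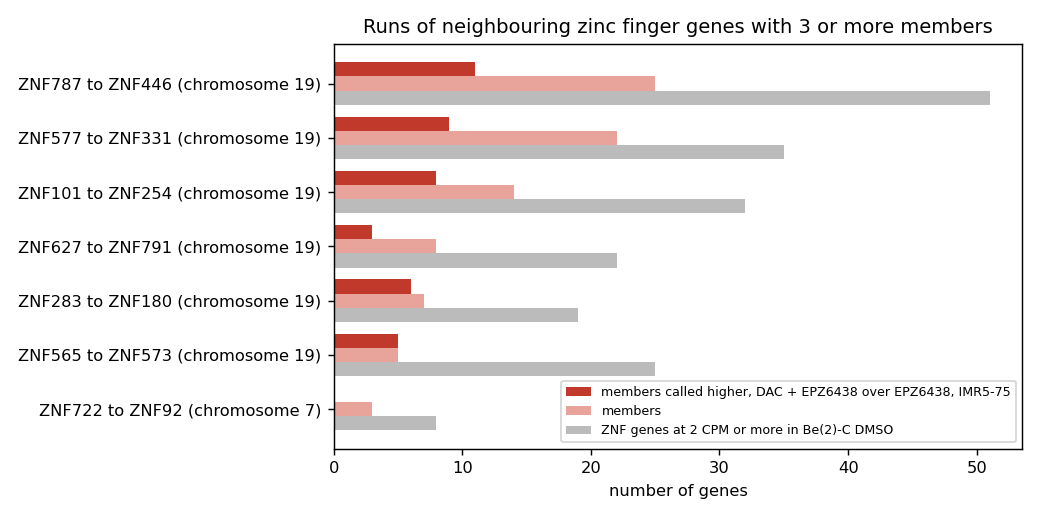
Numbers of genes in the 7 runs of neighbouring zinc finger genes with 3 or more members, as members called higher with DAC added to EPZ6438 in IMR5-75 (dark), members (light) and ZNF genes at 2 CPM or more in untreated Be(2)-C (grey). The run from ZNF565 to ZNF573 had all 5 members called higher, and that from ZNF722 to ZNF92 none of 3, beside 62 of all 118 members.

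The nearest neighbours of the members with names outside the ZNF, ZFP, ZSCAN and similar series were read in the same comparisons. FIZ1, TSHZ3 and ZBTB10 among them encode zinc finger proteins of other families. Of 43 tested, 8 were called higher and 8 lower with DAC added to EPZ6438 in IMR5-75, with a median log2 change of 0.13, near the 20.7% and 16.9% of all tested genes. Under EPZ6438, 26 of them were lower and 7 higher in IMR5-75 than in Be(2)-C, with a median log2 difference of -0.54, beside 31.4% of all tested genes lower and 31.8% higher. Of 37 tested zinc finger genes named outside the ZNF pattern (ZFP, ZSCAN, ZKSCAN and others), 8 were called higher and 7 lower with DAC added to EPZ6438 in IMR5-75, again near the shares of all tested genes, and the median log2 change was -0.05.

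Of 20 listed partners of KRAB zinc finger proteins, 0 were called higher and 6 lower with DAC added to EPZ6438 in IMR5-75 (edgeR quasi-likelihood test), and at an unadjusted p under 0.05 0 were higher and 7 lower, beside 20.7% of all tested genes called higher and 16.9% called lower. TRIM28 had 218 ± 17 CPM with DAC + EPZ6438 against 208 ± 8.3 CPM with EPZ6438 (SD, n = 2 each) and a log2 change, on TMM-scaled libraries, of -0.07 ± 0.14 (SE, adjusted p = 0.734, edgeR). SETDB1 had 287 ± 4.4 CPM against 255 ± 5.8 CPM (log2 change 0.03 ± 0.11, SE, adjusted p = 0.851, edgeR). The 6 called lower were CBX1 and CBX5, which encode heterochromatin proteins, SUV39H1 and SUV39H2, which encode H3K9 methyltransferases, HDAC2, a deacetylase, and DAXX, a histone chaperone, with log2 changes of -0.57, -0.46, -0.65, -0.74, -0.49 and -0.32.

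Under EPZ6438, IMR5-75 was above Be(2)-C for TRIM28 (log2 difference 0.44 ± 0.14, SE, adjusted p = 0.0111, edgeR) and SETDB1 (1.12 ± 0.11, SE, adjusted p = 1.31e-08, edgeR). Of 20 partners, 12 were called higher and 4 lower there, beside 31.8% and 31.4% of all tested genes. DNMT3B, a de novo DNA methyltransferase, was higher in IMR5-75 by a log2 difference of 1.10 ± 0.14 (SE, adjusted p = 8.1e-07, edgeR), and DNMT1, the maintenance methyltransferase, by 0.47 ± 0.13 (SE, adjusted p = 0.0024, edgeR). For DNMT3A, the other de novo enzyme, the log2 difference was -0.11 ± 0.10 (SE, adjusted p = 0.381, edgeR). EZH2 was higher by 1.37 ± 0.11 (SE, adjusted p = 2.84e-10, edgeR).

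With DAC added to EPZ6438 in IMR5-75, DNMT1 had 216 ± 16 CPM with DAC + EPZ6438 against 262 ± 4.8 CPM with EPZ6438 (SD, n = 2 each; log2 change -0.42, adjusted p = 0.0114, edgeR). EZH2 had 142 ± 2 CPM against 171 ± 2.4 CPM (log2 change -0.40, adjusted p = 0.00395, edgeR), and DNMT3A and DNMT3B were not called. Of 13 tested DNA methylation genes 0 were called higher and 3 lower (edgeR), beside 20.7% and 16.9% of all tested genes, and at an unadjusted p under 0.05 1 was higher and 4 lower. Of 9 Polycomb genes 0 were called higher and 7 lower (edgeR), beside the same shares of all tested genes, and 0 and 7 had an unadjusted p under 0.05. The part of these differences in the members' levels was not tested.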

How the data were processed

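The authors deposited 1 table of raw counts per gene symbol for the 16 libraries. Per the submitters' processing notes, the tools were TopHat2 2.0.5, HTSeq 0.5.3p9 and DESeq2, and the build hg19. Which annotation was counted, and whether by strand, is not stated here, so counts of overlapping, antisense and near-identical genes are uncertain. CPM were computed from library totals (9539557 to 14032155 counts). Tests used edgeR 4.0.16 in R 4.3.3 (filterByExpr, TMM, quasi-likelihood fit of the 8 groups, 15967 genes, 8 residual degrees of freedom), with Benjamini-Hochberg adjustment over all tested genes. A gene was called at an adjusted p under 0.05. Standard errors are the absolute log2 change over the root of the F statistic. The method was tested on simulated data. Folds against 0 counts are bounds against 3 counts over the group, and ratios with 1 to 3 counts have exact binomial 95% intervals, covering counting error only.

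Alternatives were DESeq2 size factors, no filter, the Wald test of DESeq2 1.42.0, a replicate block, fits of a single line, and fits without each library of the compared groups in turn. The members and gene lists were chosen with earlier results of these data known. Genes were named as those nearest the thresholds, the 8 highest in untreated Be(2)-C, those at 0 in untreated IMR5-75, the extremes among called members of each comparison, the 5 smallest changes, and fixed partner genes. Protein sequences were not used here.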

Additional observations from a re-analysis of the deposited data

Results flagged for a closer look

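The change with DAC added to EPZ6438 differed between the lines by a direct test of the difference, IMR5-75 minus Be(2)-C. It was called positive for 49 of 118 members and negative for 1 (edgeR quasi-likelihood test), beside 5.91% and 4.50% of all tested genes. Low counts of many members in IMR5-75 EPZ6438 libraries left them little room to fall there. The largest positive log2 differences were 7.71 for ZNF223, 6.65 for ZNF615, 5.75 for ZNF502, 5.69 for ZNF404 and 5.43 for ZNF229. The negative one was -5.57 for ZNF630. All 6 genes had 3 counts or fewer in an IMR5-75 group of the comparison, so the fitted sizes depend on the prior count. Without either IMR5-75 EPZ6438 library, ZNF404 had an adjusted p of 0.0701 or 0.0815, and without the first IMR5-75 EPZ6438 library or either IMR5-75 DAC + EPZ6438 library, ZNF630 had 0.131, 0.0661 and 0.0813 (edgeR). Without the first or the second IMR5-75 EPZ6438 library, the difference was 9.41 or 4.84 for ZNF502 and 8.93 or 5.83 for ZNF615.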

How the results depend on the processing

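The members' main counts kept their direction, and their size varied. With 1 library left out, DAC + EPZ6438 against EPZ6438 in IMR5-75 called 50 to 60 members higher and 1 to 1 lower, the difference between lines 38 to 50 positive and 0 to 1 negative, and Be(2)-C 0 to 0. IMR5-75 was lower than Be(2)-C for 118 to 118 members under EPZ6438, 115 to 118 under DAC and 117 to 118 under both. DAC + EPZ6438 against DAC called 0 to 2 lower in IMR5-75 and 0 to 0 higher in Be(2)-C. The spread of the library that remains alone is taken from the other groups. With each line fitted alone, where 92 members were tested in IMR5-75, DAC + EPZ6438 called 0 lower against EPZ6438 and 0 lower against DAC in IMR5-75, and 1 lower against DAC in Be(2)-C. With no filter, DAC + EPZ6438 against DAC called 1 higher and 6 lower in IMR5-75 and 1 lower in Be(2)-C, and with DESeq2 size factors 1 higher in IMR5-75. With the replicate block it called 1 lower in IMR5-75 and 0 higher in Be(2)-C. Replicate numbers did not pair the libraries (r of replicate differences from -0.549 to 0.504 between groups), so the block says nothing of a weaker effect. In IMR5-75, r was 0.504 between DMSO and DAC + EPZ6438, 0.441 between DAC and EPZ6438, and -0.235 to -0.549 for the other pairs. These signs fit 1 difference shared by libraries across the IMR5-75 groups, whatever their replicate number. It was not modelled, it enters the spread used by the tests, and its source was not tested. In Be(2)-C, r was -0.484 between EPZ6438 and DAC + EPZ6438, the groups whose comparison called 0 members. It was -0.144 to 0.0589 for the other Be(2)-C pairs. A difference shared by those Be(2)-C libraries was not modelled either. The cause of the other shifts was not tested. No named value that was called changed its direction under these alternatives. Changes near 0 in groups that overlapped, as for ZNF468, can take either sign with 1 library left out.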
